A study of Oncorhynchus mykiss with 24 samples.

Results

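The genes described here code for the enzymes and machines that write, erase and read marks on chromatin or move nucleosomes: histone lysine methyltransferases and demethylases, DNA methyltransferases and tet enzymes, ATP-dependent remodelers and bromodomain or chromodomain readers. Members were all genes of the deposited count table whose symbol begins with kmt, kdm, setd, ezh, smarc, chd, arid, ino80, brd, cbx, srcap, bptf, dnmt or tet in the forms that name these families. A gene carrying only a LOC identifier took the symbol of its zebrafish ortholog in the deposited ortholog table. The rule used names and no measured value, and it found 324 of 32765 genes. Of these, 173 carried an identifier of O. mykiss (rainbow trout, the mother) and 151 one of S. fontinalis (brook trout, the father), under 106 distinct symbols, 84 of them in both species. Salmonids descend from a genome duplication, and 45 of the 105 O. mykiss symbols stood for exactly 2 genes. How reads shared by near-identical copies were counted is not given in the sources used here, so values of single copies are uncertain to that extent.

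Rainbow trout eggs were fertilized with brook trout sperm, and each egg or embryo was cut across the animal-vegetal axis into an animal section (A) and a vegetal section (B), whose total RNA was sequenced after depletion of ribosomal RNA. The stages were 0 hours post fertilization (hpf), which the labels call both a non-fertilized egg and a freshly fertilized one, 1 hpf, 1 day post fertilization (dpf, early blastula of about 32 to 64 cells) and 3 dpf (mid-blastula of about 1000 cells). All groups share the maternal species, and no untreated non-hybrid embryo was among the samples. The labels name 24 libraries as biological triplicates, without saying whether a library held 1 embryo or several. The count table held 20, with 2 libraries per section at 0 hpf and 3 dpf and 3 at 1 hpf and 1 dpf; replicate 3 of both sections at 0 hpf and 3 dpf was not analysed here. Library totals ran from 5011274 to 9986001 counts.

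Methylation of histone H3 at lysine 4 by the kmt2 enzymes marks promoters and enhancers, and kdm5 enzymes remove it. Polycomb repressive complex 2, with ezh2 as its catalytic subunit, methylates lysine 27. Remodelers of the SWI/SNF, ISWI, CHD and INO80 families use ATP to slide, evict or exchange nucleosomes, and SRCAP and INO80 act on the histone variant H2A.Z. In fish the egg supplies the RNA and protein for the first cleavages, and transcription from the embryo's own genomes begins around the mid-blastula stage, in the blastomeres that sit at the animal pole.

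Section labels were checked with 13 O. mykiss genes of 6 vegetal pole symbols (buc, dazl, grip2b, hwa, sybu and trim36), all 6 of which were found. Their summed level was 659 to 1300 CPM (reads per library size scaled with TMM factors) in the 10 section A libraries and 3419 to 9591 in the 10 section B libraries. Within section B the sum differed between libraries: at 1 hpf it was 7779, 5708 and 5097 CPM in replicates 1 to 3, and at 3 dpf it was 9591 and 5972. Of 8 symbols each, 1 sperm marker (ropn1l, 5.25 to 16.1 CPM), 1 ovarian follicle marker (fshr, 0 to 5.94 CPM), 1 liver or yolk marker (tfa, 5.75 to 36.8 CPM) and no blood marker were in the table. S. fontinalis genes took 24.0% and 22.5% of the counts in section A at 3 dpf and 0.927% to 1.08% in every other library.

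Summed over all members, chromatin genes took a larger share of the O. mykiss counts in the animal section at every stage. The sum does not speak for each class: INO80 and SRCAP genes together ran the other way, as given below. At 0 hpf the 173 O. mykiss members held 2.67% and 2.56% of the O. mykiss counts in the animal section and 1.62% and 2.10% in the vegetal one. At 1 hpf the shares were 2.74%, 2.54% and 2.76% for A and 1.58%, 1.86% and 1.78% for B. At 1 dpf they were 2.66%, 2.58% and 2.87% against 1.83%, 1.57% and 1.94%. At 3 dpf section A reached 2.95% and 3.21%, while section B held 1.82% and 2.10%. No section B library reached the lowest section A library at any stage. In bulk sections of the blastulas at 1 dpf and 3 dpf, fewer cells holding a transcript and less of it per cell cannot be told apart.

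**Figure D1:**
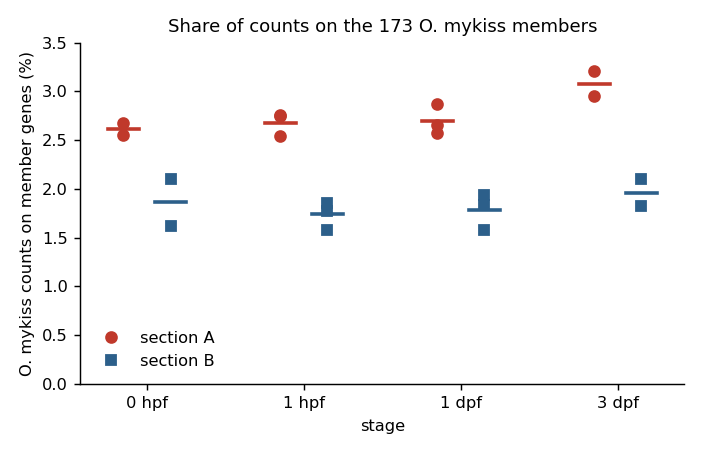
Percent of each library's O. mykiss counts that fell on the 173 O. mykiss members, by stage; circles are section A libraries, squares section B libraries and bars the mean of 2 or 3 libraries. Section A lies at 2.54% to 3.21% and section B at 1.57% to 2.10%, with no overlap.

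Single genes were tested with edgeR's quasi-likelihood test over 32502 genes and called at a Benjamini-Hochberg adjusted p under 0.05. At 1 hpf, 75 of the 173 members were higher in section A and 9 lower, where 12.5% of all O. mykiss genes tested were higher and 11.8% lower. The median log2 fold change of section A over B was 0.49 for the members and -0.03 for all O. mykiss genes. At 1 dpf the counts were 80 higher and 12 lower, against 14.3% and 13.8% of all genes, with medians of 0.58 and -0.01. At 3 dpf they were 70 higher and 27 lower, against 15.2% and 27.1%. Paternal counts enter the scaling of section A at 3 dpf. The median of all O. mykiss genes stood at -0.33 there, and that of the members at 0.44. The part of paternal counts in the lower median was not tested. With scaling factors taken from O. mykiss counts alone, 89 members were higher and 15 lower, and with DESeq2's size factors 87 and 16. Here and below, shares of all genes belong to the main fit. Counts of members or classes under another scaling or a block have no such share beside them. Of the members higher in section A, 69 were called at both 1 hpf and 1 dpf, and 42 at all of 1 hpf, 1 dpf and 3 dpf. Shared calls over all O. mykiss genes were not counted.

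The H3K4 methyltransferases carried the largest class median at 1 hpf and 1 dpf. Of 18 O. mykiss members, 15 were higher in section A at 1 hpf, 17 at 1 dpf and 14 at 3 dpf, none was lower, and the class medians were 2.15, 2.44 and 1.49. The class was formed by symbol, and no enzyme activity was measured. It includes kmt2e genes, higher at 1 dpf by 0.41 (LOC110501025) and 0.47 (kmt2e), both calls being lost without single libraries. Summed over the class, the level was 6580, 5953 and 7105 CPM in section A at 1 hpf and 1062, 2089 and 1849 CPM in section B. The section B libraries with the highest vegetal marker sums, replicate 1 at 1 hpf and replicate 1 at 3 dpf, had the lowest H3K4 sums of their groups (1062 CPM, and 1599 beside 2748 CPM), while at 1 dpf the lowest H3K4 sum (1187 CPM) belonged to replicate 2 and replicate 1 had the highest marker sum. The part of this in the results was not tested. At 3 dpf the count of 14 became 7 without section B replicate 1 and 8 without section A replicate 2. A copy of kmt2cb (LOC110508653), a member of the MLL3 group of enhancer methyltransferases, measured 386, 344 and 361 CPM in section A at 1 hpf and 30.3, 56.4 and 39.1 CPM in section B. At 1 dpf it measured 386, 329 and 476 CPM against 41.2, 31.6 and 65.5 CPM. Every section A library stood several fold above every section B library at both stages. The log2 fold change was 3.11 ± 0.40 (SE) at 1 hpf (edgeR adjusted p = 2.38e-05) and 3.11 ± 0.41 at 1 dpf (edgeR adjusted p = 2.21e-05).

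Another enhancer methyltransferase gene, kmt2d, measured 498 and 561 CPM in section A and 49.4 and 107 CPM in section B at 3 dpf. Lack of overlap was a condition for genes named by rank in a section or stage comparison, so it adds no support. Without overlap at 3 dpf, 5432 of 22724 O. mykiss genes were higher in section A and 9020 lower. For kmt2d the sections did not overlap, and section B replicate 1 was the lower of its pair. The difference was 2.77 ± 0.42 at 1 dpf (edgeR adjusted p = 9.32e-05) and 2.75 ± 0.51 at 3 dpf (edgeR adjusted p = 0.000288), and it rose to 3.46 without section B replicate 3 at 1 dpf and to 3.42 without section B replicate 2 at 3 dpf. Its second copy LOC110532701, both copies of kmt2bb, kmt2cb (LOC110530401) and kmt2ca (LOC110535292) lay between 2.54 and 2.92 at 1 hpf. The member of the class with the highest mean CPM, a kmt2a copy (LOC110503544) that codes for the MLL1 enzyme, measured 1337, 1235 and 1484 CPM in section A at 1 hpf and 136, 404 and 332 CPM in section B. Its difference was 2.22 ± 0.42 at 1 hpf and 1.77 ± 0.50 at 3 dpf (edgeR adjusted p = 0.000828 and 0.00604); without section B replicate 1 the latter was 1.27 and not called (edgeR adjusted p = 0.0858), and without section B replicate 2 it was 2.55.

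The CHD class and the class of ISWI and related ATPases followed the same section. Of 15 CHD genes, 9 were higher in section A at 1 hpf, 10 at 1 dpf and 12 at 3 dpf, with medians of 1.46, 1.6 and 1.49, and 1 was lower, at 1 dpf. Of 10 genes in the class of ISWI and related ATPases, 8, 6 and 8 were higher, and 1 was lower at 3 dpf. That class also holds smarcad1a and bptf genes, of which bptf codes for a subunit that is not an ATPase. The gene chd7, a remodeler bound at enhancers and needed in the neural crest of mammals, measured 401, 385 and 415 CPM in section A at 1 dpf and 53.7, 48.5 and 111 CPM in section B. At 3 dpf it measured 838 and 822 CPM against 91.3 and 163 CPM. Section A was higher in every library, by 2.49 ± 0.35 at 1 dpf and 2.71 ± 0.42 at 3 dpf (edgeR adjusted p = 4.12e-05 and 6.55e-05). For chd8, a relative of chd7 and the class member with the highest mean CPM, the difference was 1.54 ± 0.25, 1.72 ± 0.25 and 1.42 ± 0.30 at 1 hpf, 1 dpf and 3 dpf (highest edgeR adjusted p = 0.000954). Copies of chd4a (LOC110496200) and chd4b (LOC110487599), ATPases of the NuRD complex, differed by 2.43 ± 0.46 and 2.48 ± 0.48 at 3 dpf, and both rested in size on section B, where replicate 1 was the lower: without it they were 1.79 and 1.83, and without replicate 2 they were 3.6 and 3.67. A copy of smarcad1a (LOC110525249), a remodeler of the SNF2 family, was higher in section A by 1.17 ± 0.17 at 1 hpf and 1.27 ± 0.17 at 1 dpf (edgeR adjusted p = 9.46e-05 and 3.69e-05).

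SWI/SNF subunits and lysine demethylases also leaned to section A. Of 25 SWI/SNF genes, 12, 10 and 10 were higher at 1 hpf, 1 dpf and 3 dpf, with 1 lower at each of 1 dpf and 3 dpf; without section B replicate 1 the count was 6 at 1 hpf and 6 at 3 dpf. With O. mykiss scaling the 3 dpf count was 16. An arid1b copy (LOC110529452), a DNA-binding subunit of the complex, differed by 1.01 ± 0.21 at 1 dpf (edgeR adjusted p = 0.0018). Another arid1b copy (LOC110498372) was called lower in section A at 3 dpf at -2.10 ± 0.83 (edgeR adjusted p = 0.0383), but not without section B replicate 1 (-0.77, edgeR adjusted p = 0.526), without either section A library, with DESeq2 or with either other set of factors; it was -2.79 without section B replicate 2. Of 34 demethylase genes, 18 were higher in section A at 1 hpf and 23 at 1 dpf, none was lower, and the medians were 0.64 and 0.79; without section B replicate 1 at 1 hpf the count was 10, and without section B replicate 2 at 1 dpf it was 13. At 3 dpf 9 were higher and 5 lower, with a median of 0.15; without section B replicate 1, 5 were higher, and with O. mykiss scaling 11 were higher and 3 lower. A copy of kdm5ba (LOC110528247), an eraser of H3K4 methylation, measured 159 and 174 CPM in section A and 8.56 and 29.8 CPM in section B at 3 dpf. The sections did not overlap, and the difference was 3.11 ± 0.59 (edgeR adjusted p = 0.000346; 2.47 without section B replicate 1 and 4.27 without replicate 2). A kdm3b copy (LOC110488590), an H3K9 demethylase and the class member with the highest mean CPM, measured 606, 543 and 636 CPM in section A at 1 hpf and 286, 355 and 339 CPM in section B. Section A was higher in every library, by 0.87 ± 0.22 (edgeR adjusted p = 0.00807).

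Among the 9 other ARID genes, 2 were higher and 3 lower at 1 dpf. An arid4a copy (LOC110505790), from a family that binds Sin3 deacetylase complexes, measured 223, 174 and 260 CPM in section A at 1 dpf and 78.9, 73.1 and 136 CPM in section B, a difference of 1.19 ± 0.25 (edgeR adjusted p = 0.00195). Among the remaining lysine methyltransferases, 6 of 15 genes were higher in section A and 1 was lower at each of 1 hpf and 1 dpf. The gene setd2, which trimethylates H3 at lysine 36, measured 547, 579 and 561 CPM in section A at 1 dpf and 112, 126 and 212 CPM in section B. Section A was higher in every library, by 1.91 ± 0.33 (edgeR adjusted p = 0.000374). The single polycomb methyltransferase gene of the rule, ezh2, measured 121, 132 and 117 CPM in section A at 1 dpf and 64.0, 71.3 and 74.2 CPM in section B. The sections did not overlap, and the difference was 0.82 ± 0.15 at 1 dpf (edgeR adjusted p = 0.000522) and 0.46 ± 0.18 at 3 dpf (edgeR adjusted p = 0.0355), the latter not called without section B replicate 1 (0.31), without section A replicate 2 (0.38), without section A replicate 1 (0.54) or when only the libraries compared were fitted (0.52).

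Readers gave few calls between sections at 1 hpf and 1 dpf. At 3 dpf their counts were near the shares of all genes or rested on 1 library. Of 18 BET and other bromodomain genes 3 were higher in section A at 1 hpf and 4 at 1 dpf, and at 3 dpf 3 were higher and 6 lower (7 and 3 with O. mykiss scaling). Of all O. mykiss genes 12.5% were higher at 1 hpf and 14.3% at 1 dpf, and 15.2% were higher and 27.1% lower at 3 dpf. The bromodomain counts were thus near the background. Of 12 CBX genes 1 was higher at 1 hpf, and none without section B replicate 1. At 1 dpf 1 was higher and 1 lower; the higher call was lost without section A replicate 1 or 3 or section B replicate 1 or 2, and the lower one without section A replicate 1 or section B replicate 1. At 3 dpf 4 CBX genes were higher and none lower, a count of 0 without section A replicate 1. A cbx5 copy (LOC110532663), which codes for the HP1 alpha reader of methylated H3 lysine 9, was among them at 0.61 ± 0.24 (edgeR adjusted p = 0.039), with 552 and 357 CPM in section A and 327 and 270 CPM in section B; the value was 0.26 without section A replicate 1, and the call was also lost without section B replicate 1 or 2 and in a fit of only the libraries compared.

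**Figure D2:**
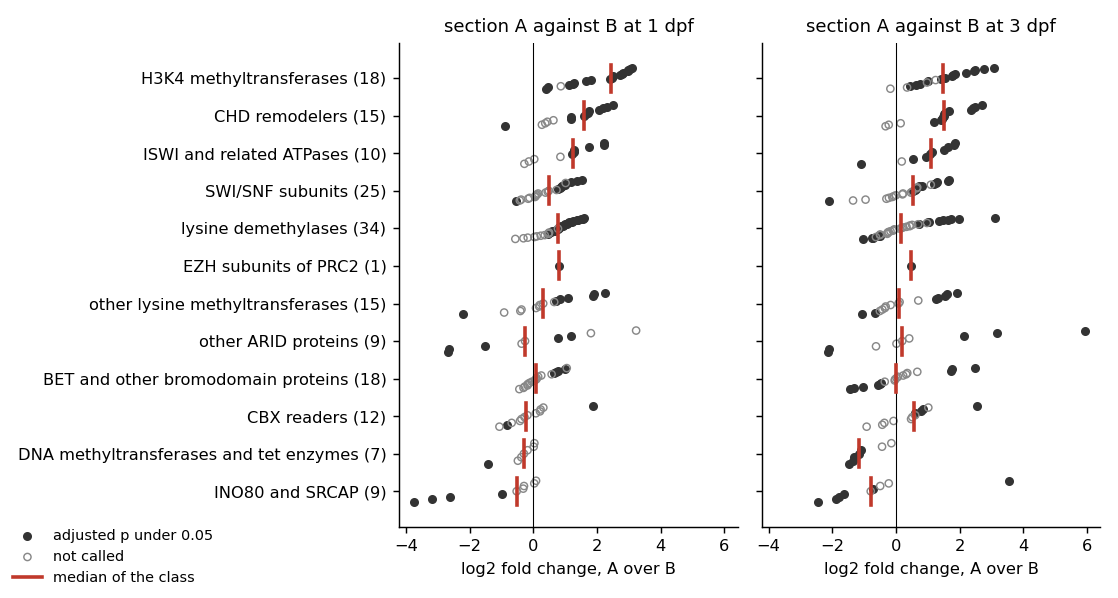
Log2 fold change of section A over section B for each of the 173 O. mykiss members, in rows by class with the number of genes in parentheses, at 1 dpf and at 3 dpf; filled points passed the edgeR test, open points did not, and the red bar is the class median. H3K4 methyltransferases have medians of 2.44 and 1.49, and the DNA methyltransferase class moves to -1.16 at 3 dpf.

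A small group of members ran the other way, and the ATPase genes ino80 and srcap led it. Called lower in section A at all 4 stages were 7 members: ino80, both srcap genes, an ino80da copy (LOC110520146, an INO80 complex subunit), the arid3b copies LOC110506484 and LOC110526363 (DNA-binding ARID factors) and kmt5b (an H4 lysine 20 methyltransferase). O. mykiss had 3 arid3b genes, and the remaining one was not called lower at all 4 stages. At 0 hpf only ino80 and srcap of these kept the call without any 1 library. Of all O. mykiss genes 3.96%, 11.8%, 13.8% and 27.1% were called lower at the 4 stages in order. How many of all genes were called lower at all 4 was not counted. The gene ino80 measured 21.1 and 37.4 CPM in section A and 303 and 269 CPM in section B at 0 hpf. At 1 hpf it measured 36.3, 29.9 and 23.9 CPM against 725, 567 and 478 CPM. At 1 dpf it measured 65.3, 76.8 and 46.1 CPM against 1179, 738 and 586 CPM. At 3 dpf it measured 174 and 123 CPM against 1019 and 593 CPM. All section B libraries lay above all section A libraries at each stage. The log2 fold change of A over B was -3.29 ± 0.38, -4.30 ± 0.33, -3.73 ± 0.32 and -2.44 ± 0.37 at the 4 stages in order (highest edgeR adjusted p = 8.53e-05), and leaving out any 1 library ended none of these calls.

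The gene srcap measured 55.0 and 74.1 CPM in section A at 0 hpf and 364 and 409 CPM in section B. At 1 hpf it measured 61.9, 54.3 and 42.5 CPM against 528, 644 and 516 CPM, and at 3 dpf 295 and 310 CPM against 1113 and 1101 CPM. The sections were far apart throughout, at -2.58 ± 0.27, -3.41 ± 0.23, -3.17 ± 0.23 and -1.87 ± 0.26 at the 4 stages (highest edgeR adjusted p = 7.01e-05). Its copy LOC110499140, which had the highest mean CPM of the class, measured 194, 171 and 190 CPM in section A at 1 hpf and 1028, 1090 and 880 CPM in section B. That copy differed by -1.5 ± 0.26, -2.43 ± 0.22, -2.61 ± 0.22 and -1.78 ± 0.26 (edgeR adjusted p from 3.47e-07 to 0.00165), with the 0 hpf call lost without section A replicate 1 (edgeR adjusted p = 0.0514). Of the 9 INO80 and SRCAP genes, 4 were lower in section A at each of the first 3 stages, and 5 were lower and 1 higher at 3 dpf, the higher one being ino80b (3.56 ± 0.62). The genes ino80c, ino80db and the second ino80b copy (LOC110500456) were not called at 3 dpf, and the call of ino80e (-0.73 ± 0.29, edgeR adjusted p = 0.0408) was lost under the other scalings and without any 1 of the 4 libraries. The ATPase genes set the class sum: INO80 and SRCAP genes together measured 522, 463 and 485 CPM in section A at 1 hpf and 2670, 2619 and 2197 CPM in section B. Among section B libraries the vegetal marker sum ran in the same order as this class sum at 1 hpf and 3 dpf. At 0 hpf the order was reversed, with class sums of 1428 and 1605 CPM beside marker sums of 4256 and 3419 CPM. It was also reversed between replicates 2 and 3 at 1 dpf. The part of shared vegetal RNA in the class sum was not tested.

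Further members were also called lower in section A. The arid3b copy LOC110526363 measured 41.5, 30.3 and 16.5 CPM in section A and 201, 199 and 163 CPM in section B at 1 dpf, so that section B was higher in every library, and the difference was -2.68 ± 0.33 (edgeR adjusted p = 1.42e-05). At 3 dpf it differed by -2.12 ± 0.40, and LOC110506484 by -2.13 ± 0.21 (edgeR adjusted p = 0.000362 and 8.47e-07). For kmt5b the values at 1 dpf were 27.4, 35.1 and 26.7 CPM against 159, 157 and 94.8 CPM. Section B was again higher in every library, and kmt5b differed by -2.20 ± 0.30 (edgeR adjusted p = 3.89e-05). Its 3 dpf call, -1.05, was lost with O. mykiss scaling (-0.74, edgeR adjusted p = 0.0981), with DESeq2 (-0.78), in a fit of only the libraries compared (edgeR adjusted p = 0.0633) and without section A replicate 2 (-0.64) or section B replicate 1 (-0.69), and was -1.65 without section A replicate 1. A dnmt3ba copy (LOC110532515), a de novo DNA methyltransferase, was the eighth member called lower in section A at 1 hpf, 1 dpf and 3 dpf. It measured 222, 150 and 143 CPM in section A at 1 hpf and 793, 307 and 339 CPM in section B, so section B replicate 1 alone stood far above the rest. The difference was -1.48 ± 0.39 (edgeR adjusted p = 0.0121) and -0.91 without that library (edgeR adjusted p = 0.118); leaving out section A replicate 2 or 3 at 1 hpf, section A replicate 3 or section B replicate 1 at 1 dpf, or section A replicate 2 or section B replicate 1 at 3 dpf also ended its call, as did O. mykiss scaling at 3 dpf (-1.16, edgeR adjusted p = 0.0527).

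**Figure D3:**
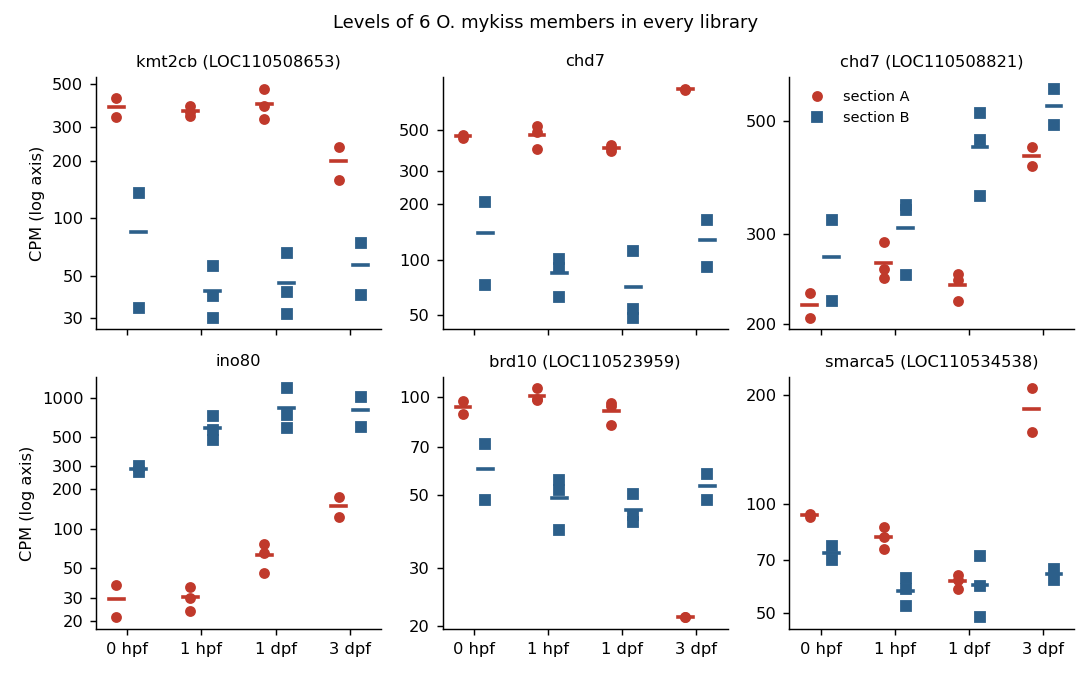
CPM on a log axis in every library for 6 O. mykiss members, by stage; circles are section A, squares section B and bars the group mean. The kmt2cb copy and chd7 lie higher in section A and ino80 in section B at all 4 stages, the other chd7 copy lies higher in section B at 1 dpf, brd10 drops in section A at 3 dpf to 21.2 CPM in both libraries, and the smarca5 copy reaches 209 and 158 CPM there.

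In the egg at 0 hpf the same classes led, but the calls were few and rested on single libraries. At that stage 14 members were higher in section A and 7 lower, against 1.45% and 3.96% of all O. mykiss genes, with medians of 0.35 and -0.02. With the egg as a block, taking same-numbered sections as 1 egg, 47 were higher and 9 lower, although same-numbered sections did not deviate together at this stage (r = -0.211 over genes). The 1.45% and 3.96% belong to the fit without the block. The share of all genes with it is not given, so the larger counts are no result about the members. Leaving out a library gave 1 higher and 2 lower (section A replicate 1), 6 and 5 (section A replicate 2), 1 and 4 (section B replicate 1) or 30 and 8 (section B replicate 2). Section B replicate 2 had the lower vegetal marker sum of its pair, 3419 against 4256 CPM, and the higher H3K4 class sum, 3330 against 1488 CPM. H3K4 methyltransferases gave 5 of the 14, CHD genes 5 and the class of ISWI and related ATPases 2. The latter were copies of smarcad1a (LOC110525249) and bptf (LOC110538976), not ISWI ATPases. With the egg block these 3 classes gave 14, 9 and 6. The gene chd6, a CHD remodeler, measured 108 and 97.6 CPM in section A and 20.0 and 42.0 CPM in section B. It kept its call without any 1 library, at 1.72 ± 0.26 (edgeR adjusted p = 0.000462; 2.36 without section B replicate 2). The kmt2cb copy LOC110508653 differed by 2.17 ± 0.47 (edgeR adjusted p = 0.0109), by 1.5 without section B replicate 1 (not called, edgeR adjusted p = 0.192) and by 3.49 without section B replicate 2.

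From the egg to the early blastula no member passed the test between consecutive stages. In section A, 0 of 173 were called from 0 to 1 hpf and 0 from 1 hpf to 1 dpf, as were 0% of all O. mykiss genes, and 8 and 13 members had an unadjusted p under 0.05. In section B the called members were 0, 0 and 0 over the 3 steps up to 3 dpf, against at most 0.0044% of all genes, with 30, 11 and 10 at an unadjusted p under 0.05. DESeq2 called 1 member in section A and 8 in section B from 0 to 1 hpf. The change of the section difference called 0 members from 0 to 1 hpf and 0 from 1 hpf to 1 dpf, with 4 and 2 at an unadjusted p under 0.05.

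Among the stage comparisons, only section A from 1 to 3 dpf gave called members in the main fit. Against 1 dpf, 39 members were higher and 40 lower, beside 11.7% and 23.2% of all O. mykiss genes, whose median was -0.33. The share of members that fell was near that of all genes, so the number of falls is no result about the members. The share that rose was larger than that of all genes. With O. mykiss scaling the split was 57 and 22, and with DESeq2's size factors 52 and 24. The 11.7% and 23.2% belong to the main scaling, and shares of all genes under the others are not given. CHD genes rose in 7 of 15 cases and fell in 3 (9 and 2 with O. mykiss scaling), and 4 rose without section A replicate 1 at 3 dpf. CBX genes rose in 5 of 12 cases and fell in none (2 without section A replicate 1 at 3 dpf). Demethylases fell in 15 of 34 cases and rose in 4, with a class median of -0.44, and the split was 10 and 6 at a median of -0.13 with O. mykiss scaling. The class median thus lay near the -0.33 of all O. mykiss genes. In the main fit the 15 of 34 that fell were a larger share than the 23.2% of all genes, and the 4 that rose were close to the 11.7%. Without single libraries 10 to 16 demethylases fell and 1 to 3 rose, and at 10 the share that fell was nearer that of all genes.

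The H4 lysine 20 monomethyltransferase gene kmt5aa (LOC110537078) went from 5.49, 5.99 and 9.15 CPM in section A at 1 dpf to 63.7 and 27.1 CPM at 3 dpf. Both 3 dpf libraries lay above all 1 dpf libraries but differed from each other. The rise was 2.72 ± 0.38 (edgeR adjusted p = 2.32e-05) and 1.97 without section A replicate 1 at 3 dpf. A copy of smarca5 (LOC110534538), the ISWI ATPase, went from 63.6, 58.3 and 61.6 CPM to 209 and 158 CPM, a rise of 1.58 ± 0.17 (edgeR adjusted p = 1.34e-06). A copy of smarcd3a (LOC110489911), a SWI/SNF subunit, went from 9.57, 10.1 and 9.52 CPM to 30.6 and 30.2 CPM, by 1.64 ± 0.25 (edgeR adjusted p = 4.5e-05). Section B values of these 3 genes lay between 8.52 and 71.8 CPM over both stages. That range pools the genes and does not show that each stayed level, but none was called between these stages in section B. The genes kdm5ba (LOC110528247; 2.12 ± 0.49) and srcap (1.75 ± 0.23) rose too (edgeR adjusted p = 0.00138 and 1.27e-05), as did the second srcap gene (1.12 ± 0.23), ino80 (1.24 ± 0.32; 0.98 and not called without section A replicate 1 at 3 dpf, edgeR adjusted p = 0.0529) and the INO80 subunit gene ino80b, which measured 2.53, 0.978 and 2.72 CPM at 1 dpf and 25.4 and 18.3 CPM at 3 dpf (3.39 ± 0.52, edgeR adjusted p = 5.21e-05). The kdm6bb gene, an H3K27 demethylase, was called at 1.76 ± 0.64 (edgeR adjusted p = 0.0274), but not without section A replicate 1 or 2 at 1 dpf or replicate 1 at 3 dpf (1.56, 1.43 and 1.21), and was 2.49 without section A replicate 3 at 1 dpf.

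The steepest fall among named members was that of brd10 (LOC110523959), from 93.3, 95.4 and 81.8 CPM to 21.2 and 21.2 CPM, by -2.09 ± 0.21 on the log2 scale (edgeR adjusted p = 7.33e-07). Its libraries agreed closely within each stage and did not overlap between stages. A chd6 copy (LOC110527654) went from 211, 190 and 166 CPM to 66.5 and 56.0 CPM (-1.62 ± 0.24, edgeR adjusted p = 4.08e-05). A second kmt5b gene (LOC110526840) fell by 1.45 on the log2 scale, to 25.1 and 23.5 CPM from 73.6, 64.2 and 61.0 CPM (edgeR adjusted p = 3.37e-05). The H3K9 and H3K36 demethylase gene kdm4aa (LOC110523012) and a kdm6bb copy (LOC110509928) fell by 1.43 and 1.36 (edgeR adjusted p = 4.9e-05 and 0.000252).

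Of 7 O. mykiss genes of DNA methylation, 5 were lower in section A than in section B at 3 dpf and none higher, where at most 1 had been called at an earlier stage. Of all O. mykiss genes 27.1% were called lower in that comparison. With O. mykiss scaling 3 were lower and with DESeq2's size factors 4; 3 were also called without section A replicate 2 and 3 without section B replicate 1. Both dnmt1 genes, which code for the maintenance methyltransferase, were among them. The dnmt1 copy LOC110538418 measured 423, 373 and 424 CPM in section A at 1 dpf and 145 and 198 CPM at 3 dpf, while section B measured 397, 354 and 458 CPM and then 400 and 471 CPM. Only section A at 3 dpf stood apart. It fell by 1.24 on the log2 scale in section A (SE 0.18, edgeR adjusted p = 2.6e-05), and its section difference at 3 dpf was -1.34 ± 0.19 (edgeR adjusted p = 2.47e-05). The dnmt1 copy LOC110486372 measured 327 and 451 CPM in section A and 824 and 835 CPM in section B at 3 dpf (-1.09 ± 0.18, edgeR adjusted p = 0.000112). The tet3 gene (LOC110525859), which oxidizes methylated cytosine, measured 9.47 and 11.8 CPM against 24.2 and 23.3 CPM at 3 dpf (-1.16 ± 0.32, edgeR adjusted p = 0.00525); the call was lost without section A replicate 1 (edgeR adjusted p = 0.0503) and in a fit of only the libraries compared. The gene dnmt3bb.1 was called at -1.31 ± 0.47 (edgeR adjusted p = 0.0233) but not with other scaling, in DESeq2, in a fit of only the libraries compared, or without section B replicate 1 (-0.83) or section A replicate 2 (-0.75), and it was -2.28 without section A replicate 1. The dnmt3bb.2 copy (LOC110492303), a de novo enzyme and the class member with the highest mean CPM, measured 918 and 749 CPM in section A and 982 and 860 CPM in section B at 3 dpf and was called in none of the 13 comparisons. The remaining member, a dnmt3ab copy (LOC110497603), was not called at 3 dpf (-0.44 ± 0.66).

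From 1 to 3 dpf the section difference itself changed for 34 members: it moved towards section A for 13 and towards section B for 21, beside 4.72% and 10.9% of all O. mykiss genes. The share of members that moved towards B was near that of all genes, so that count is no result about the members. The share that moved towards A was somewhat above that of all genes. The median change over all O. mykiss genes was -0.31; with O. mykiss scaling the split was 26 and 12, and with DESeq2's size factors 24 and 14. With the egg as a block 22 moved towards A and 35 towards B. The 4.72% and 10.9% belong to the main fit, and shares of all genes under these alternatives are not given. Demethylases gave 10 of the 21 moves towards B and none towards A (5 with O. mykiss scaling; 6 without section A replicate 1 at 3 dpf; 11 towards B and 1 towards A with the egg block). CBX genes gave 3 moves towards A, and none without section A replicate 1 at 3 dpf. The brd10 copy changed by -2.32 ± 0.27 (edgeR adjusted p = 5.21e-05): its section A level was the higher one at 1 dpf (1.00 ± 0.17) but the lower one at 3 dpf (-1.33 ± 0.22, 21.2 and 21.2 CPM against 48.5 and 58.0 CPM). Opposite calls at 1 dpf and 3 dpf were found for 3 members, brd10 (LOC110523959), the kdm4ab copy LOC110530113 (0.58 ± 0.13, then -0.71 ± 0.16) and the cbx3a copy LOC110496562 (-0.81 ± 0.23, then 0.79 ± 0.28), the last of which measured 319 and 165 CPM in section A at 3 dpf and was 0.24 there without section A replicate 1. Its 1 dpf call was lost without section A replicate 1 or section B replicate 1. Neither 3 dpf call of kdm4ab and cbx3a was kept when only the libraries compared were fitted. Opposite calls over all O. mykiss genes were not counted.

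The acetylated-histone reader gene brd2a (LOC110496233) went from 51.5, 46.3 and 47.0 CPM in section A at 1 dpf to 113 and 143 CPM at 3 dpf, while section B measured 44.1, 41.9 and 49.1 CPM and then 36.4 and 41.0 CPM. Only section A at 3 dpf stood apart, and the difference changed by 1.62 ± 0.24 (edgeR adjusted p = 0.000292). Its opposite in the same class was brd1b (LOC110521324), a scaffold of histone acetyltransferase complexes, which measured 215, 287 and 276 CPM in section A at 1 dpf and 120 and 99.0 CPM at 3 dpf and changed by -1.53 ± 0.22 (edgeR adjusted p = 0.000192). A kmt2ba copy (LOC110487656) was higher in section A by 1.66 ± 0.30 at 1 dpf, with 581, 568 and 721 CPM against 174, 167 and 251 CPM, and measured 198 and 314 CPM against 228 and 350 CPM at 3 dpf. Its sections overlapped at 3 dpf, and its change of -1.83 ± 0.47 (edgeR adjusted p = 0.0107) was not called without section A replicate 1 (-1.54, edgeR adjusted p = 0.0665) or section B replicate 2 (-1.49, edgeR adjusted p = 0.055) at 3 dpf.

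**Figure D4:**
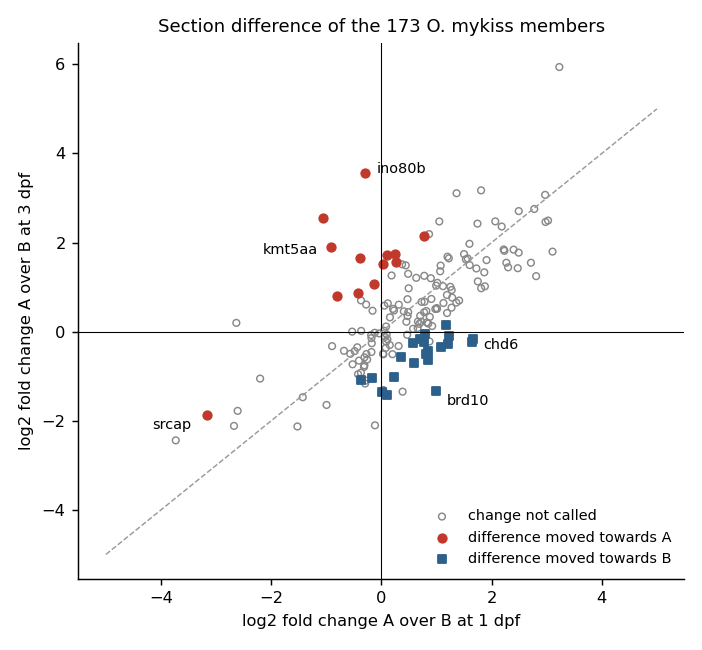
Log2 fold change of section A over B at 1 dpf against that at 3 dpf for the 173 O. mykiss members; red circles are the 13 members whose difference moved towards A, blue squares the 21 that moved towards B, and the dashed line marks equal values. The brd10 point lies right of zero at 1.00 and below zero at -1.33, and kmt5aa lies left of zero and at 1.91.

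Duplicate copies with the same symbol did not always share a section pattern. The ratio of the copies within a library, which does not depend on scaling, was tested with limma for 45 member pairs among 2523 O. mykiss pairs. It differed between sections for 2, 5, 8 and 14 member pairs at 0 hpf, 1 hpf, 1 dpf and 3 dpf, where 9.75%, 23.2%, 27.9% and 33.0% of all pairs were called, so the members stood near or below the background. Without single libraries these counts were 1 (section A or B replicate 1) at 0 hpf and 2 (section A replicate 2 or section B replicate 1) at 1 hpf. At 1 dpf they were 4 without section B replicate 1 and 5 without section A replicate 1, 2 or 3 or section B replicate 2. The chd7 pair stood out at all 4 stages. At 1 dpf LOC110508821 measured 244, 222 and 251 CPM in section A and 458, 357 and 518 CPM in section B, the reverse of the order of the gene named chd7. The log2 ratio of LOC110508821 to chd7 was lower in section A than in section B, by -2.21 ± 0.36, -2.7 ± 0.30, -3.48 ± 0.30 and -3.09 ± 0.36 at the 4 stages in order (limma adjusted p from 4.54e-06 to 0.00155), and the call held without any 1 library. The srcap copies were both vegetal but to different degrees, and the ratio of LOC110499140 to srcap was higher in section A by 0.99 ± 0.20 at 1 hpf (limma adjusted p = 0.00189). At 1 hpf the pairs of kdm5c (-0.73 ± 0.21), chd6 (-0.56 ± 0.17) and cbx3a (0.68 ± 0.21) were called as well (limma adjusted p = 0.019, 0.0236 and 0.0292), and each lost its call without 1 or more single libraries. At 3 dpf the chd6 ratio of LOC110527654 to chd6 was -1.67 ± 0.20 (limma adjusted p = 5.08e-05). The largest ratio difference was that of ino80b at 3 dpf (-4.0 ± 0.55, LOC110500456 over ino80b, limma adjusted p = 0.000119).

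Paternal copies of the members appeared in section A at 3 dpf. All 151 S. fontinalis members had at least 10 counts in both of those libraries, and 146 were above every other library. Of the 151, 147 were higher in section A than in section B and 149 higher than in section A at 1 dpf, but so were 86.3% and 88.9% of all S. fontinalis genes tested, and 0.757% and 0.245% were lower. A gene entered the table with more than 30 counts in at least 1 library, which most S. fontinalis genes reached only there, so these counts are fixed by the table and support nothing. At the earlier stages, from 0 hpf on, S. fontinalis identifiers held about 1% of counts, and whether these were paternal RNA was not tested. At those stages 2, 20 and 21 S. fontinalis members were called higher in the animal section and 1, 3 and 3 lower (background 0.0716%, 2.11% and 3.2% higher, 0.327%, 1.97% and 2.49% lower). Paternal chd7 measured 358 and 422 CPM in section A at 3 dpf, 0.182 and 0.167 CPM in section B at 3 dpf and at most 1.55 CPM in section A at 1 dpf. Paternal srcap (LOC129829248) measured 278 and 337 CPM, dnmt3bb.2 (LOC129860962) 408 and 425 CPM, and kmt2d 264 and 302 CPM, against 0.911 and 0.666, 4.37 and 7.50, and 0.182 and 2.17 CPM in section B. Both paternal chd4b genes with the highest levels, chd8 (LOC129824251) and cbx5 followed, at 171 to 289 CPM in section A at 3 dpf.

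The paternal share of a symbol, S. fontinalis counts over those of both species, could be given for 84 member symbols with at least 50 counts in each section A library at 3 dpf. Of the 105 O. mykiss member symbols, those without an S. fontinalis gene in the table have no share. Most S. fontinalis genes entered the table through these same libraries, so symbols with few paternal counts are left out. The medians and the lowest shares, of members and of all symbols, hold only for symbols that passed this entry. Its median was 27.8% (quartiles 21.7% to 37.0%), against 25.9% (15.1% to 39.2%) for all 5152 symbols. The lowest mean share over both libraries with equal gene numbers was that of dnmt1, whose libraries differed, at 3.63% (95% exact binomial interval 2.95% to 4.42%) and 10.2% (9.22% to 11.3%) in the 2 libraries. Next came kmt2a with 6.89% and 10.1% and setd5 with 8.67% and 11.5%; kmt2ca stood at 6.18% and 9.21%, with 2 O. mykiss genes and 1 S. fontinalis gene. The highest were arid5b, at 83.1% and 54.7% on 77 and 137 counts, and ino80c, a subunit gene of INO80, at 58.6% and 68.2%, each with equal gene numbers. Shares of chd4b (66.5% and 64.1%) and kmt5aa (57.8% and 66.1%) rest on 1 O. mykiss gene against 4 and 2 S. fontinalis genes, and the O. mykiss chd4 copies are split between the names chd4a and chd4b. Counts are reads, not molecules, so the intervals cover counting error only. In section A at 1 dpf, S. fontinalis genes held a median of 0.599% of the counts of these symbols, at most 7.54%, and in section B at 3 dpf 0.524%, at most 8.37%. Over all genes they held 1.06% and 1.04% of the counts in section A at 0 hpf, so such low shares do not mark an onset of paternal expression. With the 1 dpf share taken off, the section A medians at 3 dpf were 27.4% for the members and 25.1% for all symbols. The 147 O. mykiss members with an S. fontinalis gene of the same symbol rose in 35 cases and fell in 30 from 1 to 3 dpf in section A, and the 26 without one rose in 4 and fell in 10. Of all O. mykiss genes 11.7% rose and 23.2% fell. Whether a symbol has an S. fontinalis gene was mostly decided by counts in section A at 3 dpf. The same libraries enter the rise or fall, so the split supports nothing, and it was not tested.

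**Figure D5:**
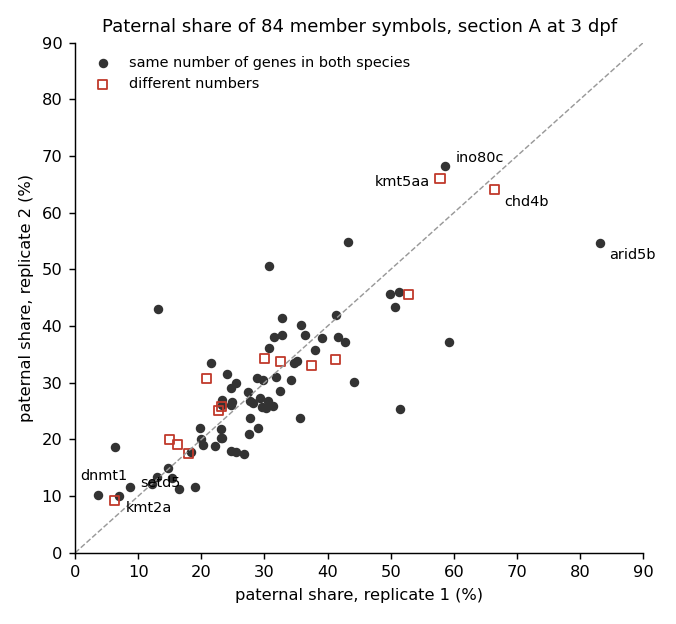
Paternal share in percent of 84 member symbols in section A at 3 dpf, replicate 1 against replicate 2; filled circles have the same number of genes in both species, open squares different numbers, and the dashed line marks equal shares. Most symbols lie between 20% and 40%, dnmt1 at 3.63% and 10.2%, and arid5b is far from the line at 83.1% and 54.7%.

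Genes that work with the members were taken from 9 lists, of which 121 of 160 symbols and 189 O. mykiss genes were found. In the animal section 42 of these exceeded their vegetal level at 1 hpf and 18 lay below it, followed by 45 and 22 at 1 dpf and 59 and 57 at 3 dpf. Over all O. mykiss genes 12.5% and 11.8% were higher and lower at 1 hpf, 14.3% and 13.8% at 1 dpf, and 15.2% and 27.1% at 3 dpf. From 1 to 3 dpf 43 partner genes rose and 50 fell in section A, beside 11.7% and 23.2% of all. Partners of the kmt2 enzymes in COMPASS complexes gave 6 higher and 1 lower of 16 at 1 hpf, and the structural partner men1 (LOC110500710) was called in none of the 4 section comparisons. Partners in the INO80, SRCAP and TIP60 complexes, taken as 1 list, gave 6 higher and 2 lower of 30 at 1 hpf. The TIP60 scaffold gene trrap (LOC110499190) was higher in section A at 1 dpf by 1.57 ± 0.29. DNA methylation partners gave 3 higher and 9 lower of 21 at 3 dpf, with uhrf1 (LOC110533997), which brings dnmt1 to replicated DNA, at -0.87 ± 0.16. Polycomb complex 1 partners fell in 10 of 15 cases and rose in 3 from 1 to 3 dpf in section A, with a median of -1.05, and phc2b (LOC110494475) was among them at -1.05 ± 0.15. Other histone methyltransferases rose in 15 of 36 cases and fell in 2, and the arginine methyltransferase gene prmt1 (LOC110537902) rose by 1.40 ± 0.21. Acetyltransferases and deacetylases gave 9 higher and 6 lower of 30 at 1 dpf, polycomb complex 2 partners 1 higher and 2 lower of 11, NuRD partners 1 and 1 of 19, and the remaining demethylases 5 and 1 of 11. The summed level of these demethylases was nevertheless lower in section A at 1 dpf, at 860 to 981 CPM against 1018 to 1181 CPM. Lists are given at different comparisons, and their other comparisons are not shown.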

How the data were processed

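The authors deposited raw counts per gene of both parental genomes in 1 table; per the submitters' processing notes the tools were HTSeq 2.0.4, STAR 2.7.11, fastp 0.23.4 and an unnumbered DESeq2. The genome builds, the strand setting and the treatment of reads that map to several places are not given in the sources used here. The table held every gene with more than 30 counts in at least 1 library. The deposited normalized tables per section were not used here. Members and gene lists were chosen with earlier results of these data known.

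Counts were fitted with edgeR 4.0.16 (R 4.3.3) by the quasi-likelihood test, with 1 mean for each combination of section and stage, TMM scaling, the default filter on low counts and Benjamini-Hochberg adjustment over all 32502 genes tested. The 13 contrasts were the sections at 4 stages, the consecutive stages in each section and the changes of the section difference. CPM values use the same factors and are not corrected for gene length, so levels of different genes were not compared. Copy ratios were the log2 ratio with a pseudocount of 0.5 counts, tested with limma 3.58.1 for pairs with a mean of at least 1 CPM per copy. Scripts were tested on simulated data. Alternatives were DESeq2 1.42.0, other scalings, no filter, the libraries compared alone, each library left out, and replicate blocks. With 2 or 3 libraries per group, and labels that do not tell embryos from pools, p-values measure only the spread between these libraries.

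Genes were named by rank among called members that did not overlap between groups, by the highest mean CPM of each class, by paternal level and share, by copy ratio, and as any DNA methyltransferase, tet, ezh, srcap or ino80 member; members named for opposite calls at 1 dpf and 3 dpf, were picked after their values were seen. The egg block takes sections A and B of the same stage and number as 1 egg. Their deviations from the group means correlated over 15423 O. mykiss genes with r = 0.751, 0.489 and 0.613 at 1 hpf, 0.449, 0.599 and 0.721 at 1 dpf, 0.525 at 3 dpf and -0.211 at 0 hpf. Differently numbered sections gave -0.662 to 0.523 at 1 hpf and -0.615 to 0.333 at 1 dpf, so the ranges overlapped at 1 hpf. With 2 libraries per group, differently numbered pairs only repeat the same value with the opposite sign. These values do not settle which sections came from 1 egg.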

Additional observations from a re-analysis of the deposited data

Results flagged for a closer look

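The effect of the section differed between 1 dpf and 3 dpf, by the edgeR test of the change itself, for these named O. mykiss members; positive values moved towards section A. The changes towards section B on the log2 scale were -2.32 for brd10 (LOC110523959), -1.87 for chd6 (LOC110527654), -1.83 for kmt2ba (LOC110487656), -1.53 for brd1b (LOC110521324), -1.48 for kdm4aa (LOC110523012), -1.47 for kdm6bb (LOC110509928) and -1.42 for kmt5b (LOC110526840). The changes towards section A were 2.83 for kmt5aa (LOC110537078), 2.03 for smarcd3a (LOC110489911), 1.62 for brd2a (LOC110496233), 1.61 for cbx3a (LOC110496562), 1.5 for brd3b (LOC110531936), 1.49 for smarca5 (LOC110534538) and 1.3 for srcap. Paternal counts enter the scaling of section A at 3 dpf, and the median O. mykiss gene moved towards section B by 0.31. A shift shared by all genes adds to the changes towards B and takes from those towards A. The part of paternal counts in it was not tested. The kmt5aa value was 2.08 without section A replicate 1 at 3 dpf, and the cbx3a call was lost without that library (1.05, edgeR adjusted p = 0.0527), as was the kmt2ba call (-1.54) and the brd3b call (0.89, edgeR adjusted p = 0.248). The brd3b call was also lost without replicate 1 of either section at 1 dpf, without section B replicate 2 at 3 dpf and in a fit of only the libraries compared.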

How the results depend on the processing

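Members called between sections at 0 hpf numbered 21, but 45 with DESeq2, 49 in a fit of only the libraries compared, 56 with the egg as a replicate block, 62 with that block and the numbers of section B crossed (added after seeing the data), and 3 to 38 without single libraries. Leaving out single libraries gave 60 to 82 calls at 1 hpf, 77 to 100 at 1 dpf, 69 to 99 at 3 dpf and 54 to 76 from 1 to 3 dpf in section A. From 0 to 1 hpf, 1 (DESeq2) or 6 (only the libraries compared) were called in section A where edgeR called none, and 8, 3 and 13 (replicate number as a block) in section B. The change of the section difference from 1 to 3 dpf gave 34 calls, 57 with the egg block and 26 to 40 without single libraries. Copy pairs gave 1 to 2 calls at 0 hpf, 2 to 5 at 1 hpf (8 with the egg block), 4 to 11 at 1 dpf and 13 to 14 at 3 dpf. The median paternal share ran from 27.1% to 28.5%. Of 407 calls of O. mykiss members over 13 comparisons, 167 were lost under at least 1 alternative, 156 without a library and 5 with the egg or replicate number as a block. For the 87 values of genes named by rank, 1064 recomputed values kept direction and call, 56 lost the call and 0 reversed. The causes were not tested. No share of all genes stands beside the counts of members under an alternative fit, so changes in those counts are no result about the members. Each section had 2 libraries at 0 hpf and 3 dpf and 3 at the other stages.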
